A study of Homo sapiens with 24 samples.

Results

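IL18, IL18BP and IL18R1 encode interleukin-18, its soluble binding protein and the ligand-binding chain of its receptor. The 3 genes were found by their symbols in the deposited table, where each has 1 probe among 355 with values. They were chosen on measured values: in earlier results of these arrays IL18BP was high and IL18 was low after 18 h of stimulation. Levels at 18 h and their changes are therefore given as a description, without a test.

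Interleukin-18 is a cytokine of the interleukin-1 family that epithelial cells keep as an inactive precursor and release after cleavage by caspase-1. It drives T cells and natural killer cells to make interferon-γ through a receptor whose α chain is the product of IL18R1 and whose signal runs through MYD88, IRAK kinases, TRAF6 and NF-κB. IL18BP is a secreted decoy that binds interleukin-18 and keeps it from that receptor, and interferon-γ is a known inducer of IL18BP in epithelial cells. HuR, the product of ELAVL1, binds RNA, with AU-rich stretches in many cytokine transcripts among its targets.

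The study measured RNA recovered by immunoprecipitation (IP) from BEAS-2B, an immortalised line of human bronchial epithelial cells. Cells were untreated (PBS) or received TNFα and IFNγ together (50 ng/ml of each) and were taken at 3 h or 18 h, and each lysate was precipitated with a mouse monoclonal antibody to HuR or with IgG1 as isotype control. This gave 8 groups of 3 membrane arrays (24 in all), 1 from each of the replicate sets that the labels number 1, 3 and 4, and the design text calls the replicates biological. The vendor label of the HuR antibody differs between untreated cells (Santa Cruz Biotechnology) and stimulated cells (R&D), whereas the protocol names 1 source for all. By these labels vendor and stimulation changed together in the HuR IP, so their parts there cannot be told apart. All groups come from 1 cell line, so nothing here speaks of airway epithelium in general.

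Values below are log2 intensities minus the median of the 355 probes of the same array, so that 0 is the middle probe, and a difference of 1 is a factor of 2. Array medians ran from 2303 to 23848 intensity units. Set 1 stood apart, with a median correlation across genes of 0.39 with arrays of sets 3 and 4, against 0.77 between sets 3 and 4. Of 8 epithelial marker genes listed for a check of the cell type none has a value on this array. Of 16 leukocyte markers 7 were measured, and their median lay between -0.67 and 0.09 in every array. In an immunoprecipitate, fewer cells with a transcript, less of it per cell and less recovery of it cannot be told apart.

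A promoter sequence of IL18BP is shown because IL18BP had the largest change of the 3 genes and because the mixture given to the cells held IFNγ beside TNFα. A link between this sequence and the measured changes was not tested. No group received either cytokine alone, so their parts cannot be told apart. No window was available for IL18, which was not searched. RefSeq (GRCh38.p14) gives 4 windows of 300 bases around start sites of IL18BP and 2 for IL18R1. They were searched on both strands for the core of the interferon-stimulated response element, which is GAAA, any 2 bases and GAAA again, and for the core of the γ-activated site, TTCNNNGAA. The third IL18BP window, chr11:71999367-71999666 on the plus strand, holds 1 match of the first, shown in capitals, and 2 of the second. The other 3 windows of IL18BP hold neither.

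IL18BP: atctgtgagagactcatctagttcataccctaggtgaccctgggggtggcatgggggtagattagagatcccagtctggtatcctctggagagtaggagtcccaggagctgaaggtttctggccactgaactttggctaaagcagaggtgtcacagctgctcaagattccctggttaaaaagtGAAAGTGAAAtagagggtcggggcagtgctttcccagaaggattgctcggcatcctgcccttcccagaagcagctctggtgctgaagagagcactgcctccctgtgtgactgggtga

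The same 10 letters, GAAAGTGAAA, stand in the promoter window of CXCL10, a T-cell chemokine induced by interferon (minus strand, chr4:76023684-76023743). CFB, the complement factor whose values followed those of IL18BP most closely beside CXCL11, holds the response element core on its other strand (plus strand shown, chr6:31945930-31945989), and so does the second window of IL18R1 (plus strand shown, chr2:102356240-102356299). CXCL11 itself holds no match of the response element core in its window, and 2 of the γ-activated core. No window of IL15RA, another gene close to IL18BP, holds the response element core, and its window 1 holds 1 match of the γ-activated core. The likeness of CFB, CXCL11 and IL15RA to IL18BP rests on arrays that include those on which IL18BP was chosen. Capitals mark the response element core, which reads from the opposite strand in CFB and IL18R1.

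CXCL10: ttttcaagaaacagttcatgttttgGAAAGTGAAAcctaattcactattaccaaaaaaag
CFB: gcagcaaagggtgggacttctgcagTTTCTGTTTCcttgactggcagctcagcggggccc
IL18R1: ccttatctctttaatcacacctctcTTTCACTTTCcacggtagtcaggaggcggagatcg

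Of all 35116 windows 3.57% hold the response element core and 7.66% the γ-activated core (4.38% and 9.38% of 27305 genes). Of 24 genes listed as inducible by IFNγ, 14 have a window, of which 7 hold the response element core and 7 the γ-activated core. A match is a run of letters and no proof of a site, and IL18R1, whose levels are given below, carries one too.

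IL18BP, the decoy, was near the middle of the array in untreated cells. In those arrays IL18BP was 0.34 to 1.09 log2 units above the lowest probe of the same array. At 3 h in untreated cells the arrays of sets 1, 3 and 4 held it at 0.18, -0.27 and -0.04 in the IgG1 IP and at -0.06, 0.16 and -0.16 in the HuR IP. At 18 h the untreated values were 0.04, -0.36 and 0.06 in the IgG1 IP and -0.36, 0.12 and -0.53 in the HuR IP. Untreated arrays thus lay within about one doubling of each other. In the HuR IP the 18 h value was below the 3 h value in all 3 sets, and between the antibodies the sets did not share an order at either time. After 3 h of TNFα and IFNγ the values were 0.21, 0.44 and 0.46 in the IgG1 IP and 0.39, 0.29 and 0.11 in the HuR IP. All 6 of these arrays were above 0. After 18 h they were 0.55, 2.45 and 1.75 in the IgG1 IP and 0.85, 0.80 and 1.61 in the HuR IP, which places every stimulated array above every untreated array of the same time.

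**Figure D1:**
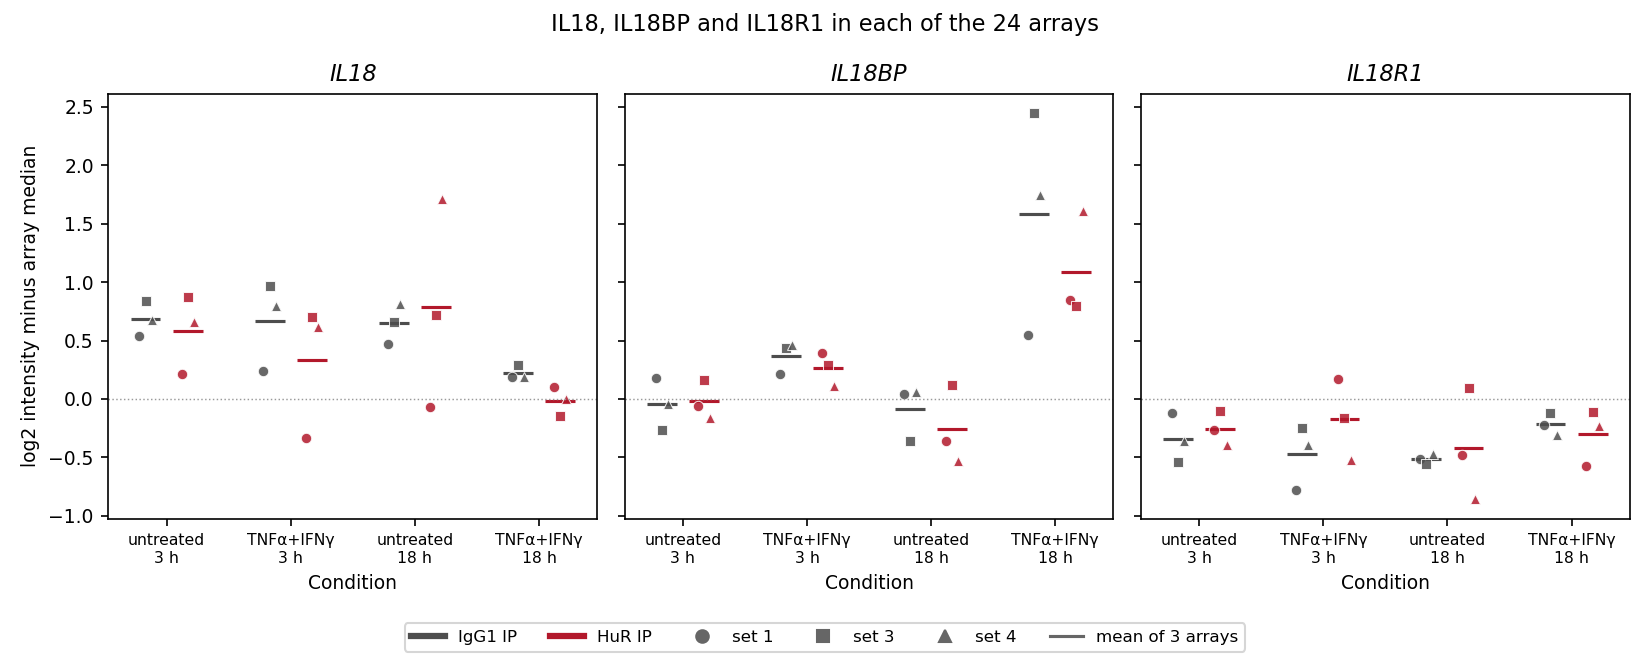
Level of each of the 3 transcripts (log2 intensity minus the array median, 0 being the middle probe) by condition, with grey for the IgG1 IP, red for the HuR IP, symbols for sets and a bar for the mean of 3 arrays. IL18BP stands highest at 18 h of stimulation (means 1.59 and 1.09), where IL18 stands lowest (0.22 and -0.02), and IL18R1 lies below 0 in 22 of 24 arrays.

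Ordered by group means, IL18BP ran from -0.26 ± 0.34 (SD, n = 3 arrays) in the HuR IP of untreated cells at 18 h to 1.59 ± 0.96 in the IgG1 IP of cells stimulated for 18 h. The single step in that order at which neighbouring groups did not overlap lay between 3 h and 18 h of stimulation, from 0.37 ± 0.14 (IgG1 IP, 3 h) to 1.09 ± 0.46 (HuR IP, 18 h). Among the 355 probes of an array, IL18BP ranked 58, 40 and 31 from the brightest in sets 1, 3 and 4 of the IgG1 IP at 18 h of stimulation. In the untreated IgG1 arrays of that time it ranked 164, 313 and 159.

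Set 1 gave the smallest value for IL18BP in the stimulated IgG1 IP at 18 h. Its raw intensity there was 4433, below the 12134 of the untreated array, while the median of the stimulated array was lower by more, at 3021 against 11831. In sets 3 and 4 the raw intensity was higher with stimulation, at 12604 against 4392 and 41812 against 16635.

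IL18, the cytokine, was above the array median in most arrays. In untreated cells at 3 h it stood at 0.54, 0.84 and 0.68 in the IgG1 IP of sets 1, 3 and 4, and at 0.21, 0.87 and 0.66 in the HuR IP. The untreated 18 h arrays gave 0.47, 0.66 and 0.81 in the IgG1 IP and -0.07, 0.72 and 1.71 in the HuR IP. The HuR values at 18 h were thus the most scattered, with set 4 high and set 1 low. With 3 h of stimulation IL18 was at 0.24, 0.97 and 0.80 in the IgG1 IP and at -0.33, 0.70 and 0.62 in the HuR IP. With 18 h it was at 0.19, 0.29 and 0.19 in the IgG1 IP and at 0.10, -0.15 and 0.00 in the HuR IP. The stimulated 18 h arrays lay closer together than those of any other condition, and in the IgG1 IP all 3 lay below all 3 untreated ones.

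In the order of group means IL18 ran from -0.02 ± 0.12 (HuR IP, 18 h of stimulation) over 0.22 ± 0.06 (IgG1 IP, 18 h of stimulation) to 0.79 ± 0.89 (HuR IP, untreated 18 h). Those first 2 groups did not overlap, and every later pair of neighbours did. The other 5 groups lay between 0.33 and 0.69.

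IL18R1, the receptor chain, was dim. It lay below the array median in 22 of 24 arrays, and its signal was 0.01 to 1.37 log2 units (median 0.54) above the lowest probe of the same array. In 6 arrays fewer than 10% of the probes were dimmer. Untreated arrays of sets 1, 3 and 4 gave -0.12, -0.54 and -0.36 at 3 h in the IgG1 IP and -0.27, -0.10 and -0.39 in the HuR IP. At 18 h they gave -0.51, -0.56 and -0.47 in the IgG1 IP and -0.48, 0.09 and -0.86 in the HuR IP. No group of IL18R1 stood clear of its neighbour in the order of means. Stimulated arrays gave -0.78, -0.25 and -0.39 at 3 h in the IgG1 IP and 0.17, -0.16 and -0.52 in the HuR IP. At 18 h of stimulation they gave -0.22, -0.12 and -0.31 in the IgG1 IP and -0.57, -0.11 and -0.23 in the HuR IP. Group means spanned only -0.51 ± 0.05 to -0.17 ± 0.34. For comparison, the signal above the lowest probe had a median of 1.28 for IL18 and 1.05 for IL18BP.

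After 3 h of TNFα and IFNγ none of the 3 transcripts passed in either immunoprecipitate. Linear models were fitted with limma to all 24 arrays, and passing means a p under 0.05 once adjusted for the 355 probes (Benjamini-Hochberg). IL18BP stood 0.28 ± 0.34 higher in the HuR IP (SE, n = 3 arrays per group, 95% interval -0.42 to 0.99, limma adjusted p = 0.995) and 0.41 ± 0.34 higher in the IgG1 IP (-0.30 to 1.12, limma adjusted p = 1.00). It was above 0 within all sets, by 0.13 to 0.45 in the HuR IP and by 0.02 to 0.71 in the IgG1 IP. IL18 differed by -0.25 ± 0.34 in the HuR IP (-0.96 to 0.47) and by -0.02 ± 0.34 in the IgG1 IP (-0.74 to 0.70). For IL18R1 the difference was 0.09 ± 0.23 (-0.39 to 0.56) and -0.13 ± 0.23 (-0.61 to 0.34). These intervals leave room for a doubling of IL18BP at 3 h in the IgG1 IP.

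Of the 3 members 0 passed at 3 h, against 0.563% of all probes in the HuR IP and 1.13% in the IgG1 IP. The stimulated and untreated arrays did not overlap for 0 of 3 in the HuR IP, against 8.17% of all probes, and for 1 of 3, IL18BP, in the IgG1 IP, against 9.58%. At 3 h IRF1, a transcription factor that interferon induces, rose in both. Its change was 2.75 ± 0.51 in the HuR IP (limma adjusted p = 0.0125) and 2.69 ± 0.51 in the IgG1 IP (limma adjusted p = 0.0162). A link between IRF1 and the 3 members was not tested.

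**Figure D2:**
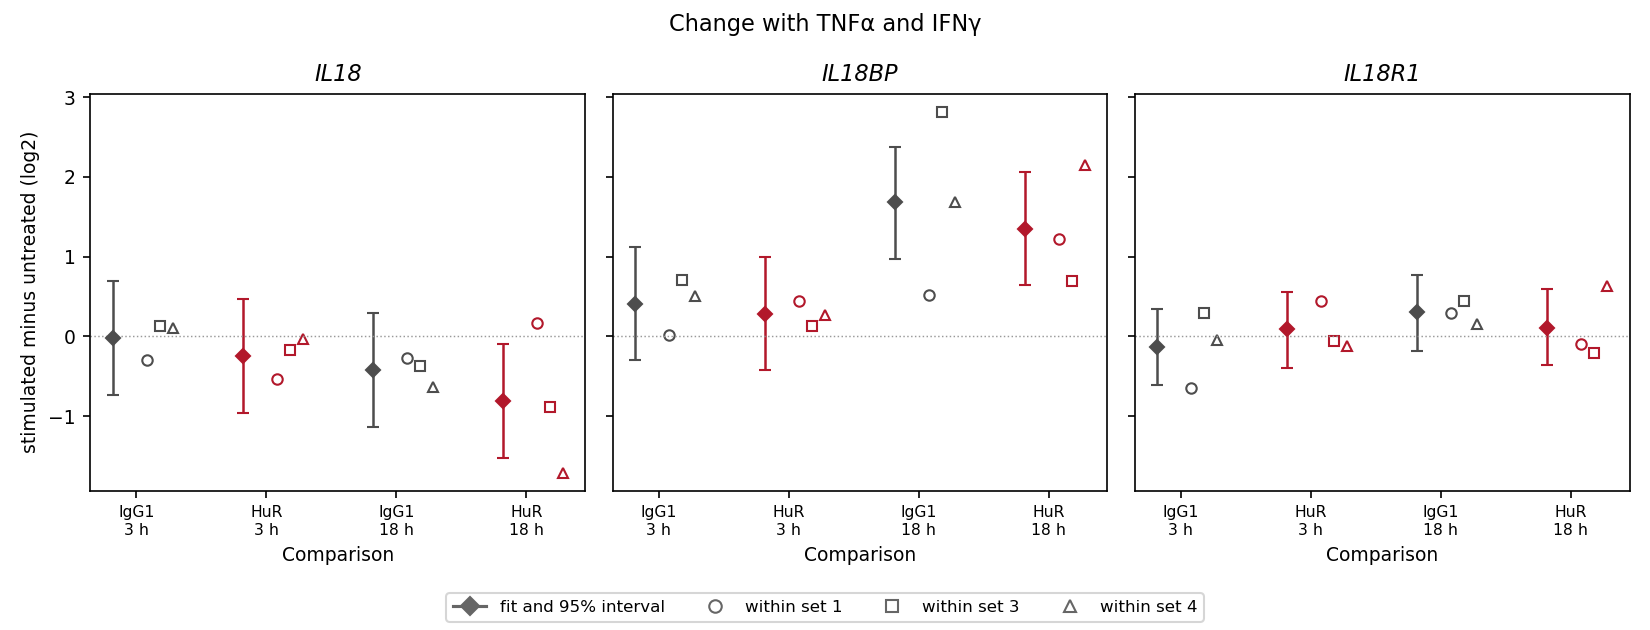
Change with TNFα and IFNγ (stimulated minus untreated, log2) of each transcript by antibody and time. Diamonds with bars are the fit over all arrays with its 95% interval, open symbols the change within each set. IL18BP is near 0.3 to 0.4 at 3 h and 1.35 to 1.68 at 18 h. The fit of IL18 lies below 0 in all 4 comparisons, with the sets apart at 18 h in the HuR IP. At 3 h in the IgG1 IP it is only -0.02, with sets 1, 3 and 4 at -0.30, 0.13 and 0.11.

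By 18 h of stimulation IL18BP stood 1.68 ± 0.34 above untreated cells in the IgG1 IP (SE, n = 3 arrays per group, 3.19-fold, interval 1.95 to 5.22). In the HuR IP it stood 1.35 ± 0.34 above (2.55-fold, 1.56 to 4.16). The 3 sets gave 0.52, 2.82 and 1.69 in the IgG1 IP and 1.22, 0.69 and 2.15 in the HuR IP, so that all 6 were positive but spread widely. Without set 3 the IgG1 value was 1.10. Across the alternative settings the change ran from 0.20 to 2.86 in the IgG1 IP and from 1.22 to 2.63 in the HuR IP. IL18BP was the 13th highest change of 355 probes in each of the immunoprecipitates.

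IL18 differed in the other direction at 18 h, by -0.81 ± 0.34 in the HuR IP (0.572-fold, interval 0.348 to 0.940) and by -0.42 ± 0.34 in the IgG1 IP (0.745-fold, 0.453 to 1.22). The HuR value rests largely on the untreated array of set 4: the sets gave 0.17, -0.88 and -1.71, and without that array the value was -0.35. In the IgG1 IP the sets gave -0.27, -0.37 and -0.63. IL18 had the 3rd lowest change of all probes in the HuR IP and the 15th lowest in the IgG1 IP. For IL18R1 the values at 18 h were 0.11 ± 0.23 in the HuR IP and 0.30 ± 0.23 in the IgG1 IP, where its 3 arrays lay above the untreated ones. With no centring, which moved the median of all probes by -1.20 at 18 h in the IgG1 IP and by 0.48 in the HuR IP, IL18R1 turned to -0.91 in the IgG1 IP, and IL18BP stayed above 0 at 0.47.

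Among all 355 probes 1.41% passed at 18 h in the IgG1 IP and 1.13% in the HuR IP, and no call is given for the 3 genes, which were selected on this comparison. Stimulated and untreated arrays were apart for 3 of 3 in the IgG1 IP (all probes: 7.04%) and for 1 of 3, IL18BP, in the HuR IP (all probes: 8.17%), and for the same reason nothing is read from these counts.

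Between 3 h and 18 h of stimulation IL18BP was higher at 18 h by 0.83 ± 0.34 in the HuR IP (0.12 to 1.54) and by 1.22 ± 0.34 in the IgG1 IP (0.51 to 1.92). All differences in this paragraph use the 18 h values on which the genes were chosen, so their intervals describe and do not test. The change with stimulation was larger at 18 h than at 3 h by 1.16 ± 0.34 over both antibodies (0.46 to 1.87), with 0.63, 1.33 and 1.53 in sets 1, 3 and 4. IL18 gave -0.48 ± 0.34 for the same quantity and IL18R1 0.23 ± 0.23.

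The ratio of the IL18BP signal to the IL18 signal on the same array is not changed by 1 factor applied to a whole array. Quantile scaling and background correction can change it. It compares changes, since the levels of different probes are not on a common scale. In the IgG1 IP of untreated cells at 18 h the log2 ratio was -0.43, -1.02 and -0.75 in sets 1, 3 and 4, and with stimulation 0.36, 2.17 and 1.57. In the HuR IP it was -0.29, -0.61 and -2.24 untreated and 0.76, 0.95 and 1.62 stimulated. That ratio stood higher in every stimulated array than in every untreated array of the same antibody at 18 h. Both genes were chosen on these 18 h values, in opposite directions, so nothing is read from this separation. The mean change of the ratio was 2.10 in the IgG1 IP (4.29-fold) and 2.16 in the HuR IP (4.45-fold). At 3 h it was 0.43 and 0.53, and the groups overlapped.

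**Figure D3:**
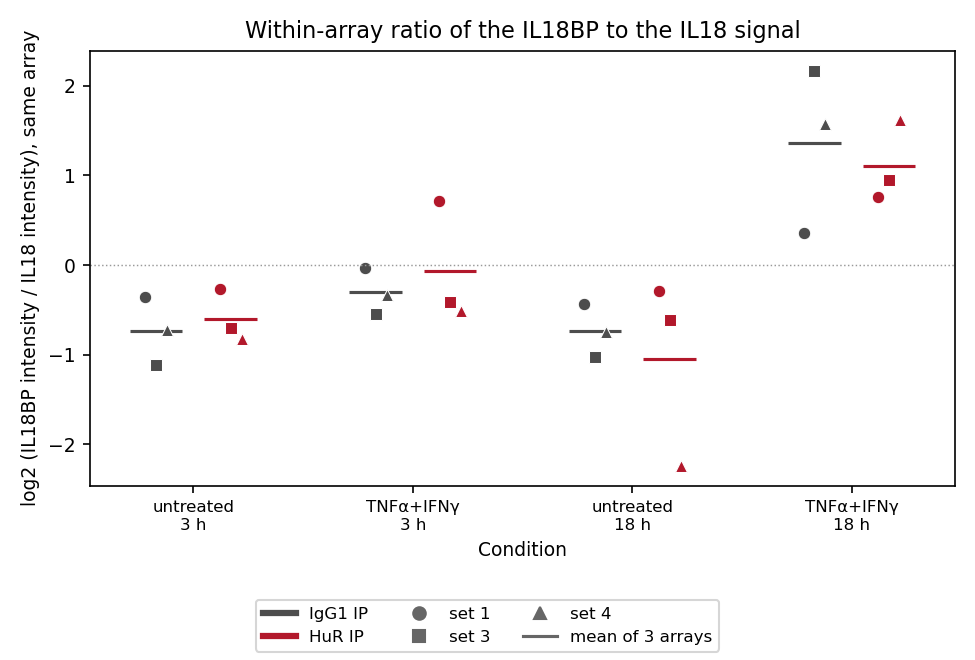
Log2 ratio of the IL18BP to the IL18 intensity of the same array by condition, with grey for the IgG1 IP, red for the HuR IP, symbols for sets and a bar for the mean of 3 arrays. All 12 untreated arrays are below 0 and all 6 arrays of 18 h stimulation above 0, with set 1 and set 3 of the IgG1 IP at 0.36 and 2.17. Both genes were chosen on their values at 18 h of stimulation, so this separation is a description.

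Recovery with the HuR antibody was set against that with IgG1 to ask about HuR binding, and none of the 3 transcripts passed in the mean over the 4 conditions. IL18 stood at -0.14 ± 0.17 (SE, 12 arrays per antibody, 95% interval -0.50 to 0.22), IL18BP at -0.19 ± 0.17 (-0.54 to 0.17) and IL18R1 at 0.10 ± 0.11 (-0.14 to 0.34), each with a limma adjusted p of 0.992. The 12 ratios come from 3 sets and are not independent. Taken from the 3 set means, the SE came to 0.15 for IL18, 0.08 for IL18BP and 0.12 for IL18R1. The upper ends of the limma intervals correspond to 1.16-fold for IL18, 1.12-fold for IL18BP and 1.26-fold for IL18R1. They leave the shared sets out of account and hold for this scaling only. Across the alternative settings the mean ran from -0.45 to 0.14 for IL18 and from -0.25 to 0.09 for IL18BP. For IL18R1, which was dim, it ran from 0.03 to 0.88. The directions of IL18 and IL18BP depend on the centring: with no centring IL18 stood at 0.07 and IL18BP at 0.02. In this mean limma counted 0 genes, 0% of the 355, against 12 at an unadjusted p under 0.05.

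By condition, the HuR minus IgG1 difference of IL18BP was 0.02 in untreated cells at 3 h, -0.11 in stimulated cells at 3 h, -0.17 in untreated cells at 18 h and -0.50 in stimulated cells at 18 h. The last value had an interval of -1.21 to 0.21 and came mostly from set 3, with 0.30, -1.65 and -0.14 in sets 1, 3 and 4. That direction holds only relative to the array median: the raw intensity of IL18BP was higher in the HuR IP in all 3 sets, at 23664 against 4433, 14160 against 12604 and 43032 against 41812, and with no centring the difference was 0.88. For IL18 the differences were -0.11, -0.34, 0.14 and -0.24 in the same order. At 18 h of stimulation the 3 HuR arrays of IL18 lay below the 3 IgG1 arrays, by 0.10, 0.44 and 0.19 after centring. With no centring that difference of IL18 turned to 1.13. For IL18R1 the 4 differences were 0.09, 0.31, 0.10 and -0.09, the last turning to 1.28 with no centring.

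The stimulated change in the HuR IP minus that in the IgG1 IP was -0.33 ± 0.48 for IL18BP at 18 h (-1.33 to 0.68), -0.38 ± 0.48 for IL18 (-1.40 to 0.63) and -0.18 ± 0.32 for IL18R1 (-0.86 to 0.49). The change of IL18BP was thus 1.68 in the control IP and 1.35 in the HuR IP, and the interval of their difference spans both directions. By the labels the vendor of the HuR antibody changed with stimulation too, which cannot be told apart here.

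**Figure D4:**
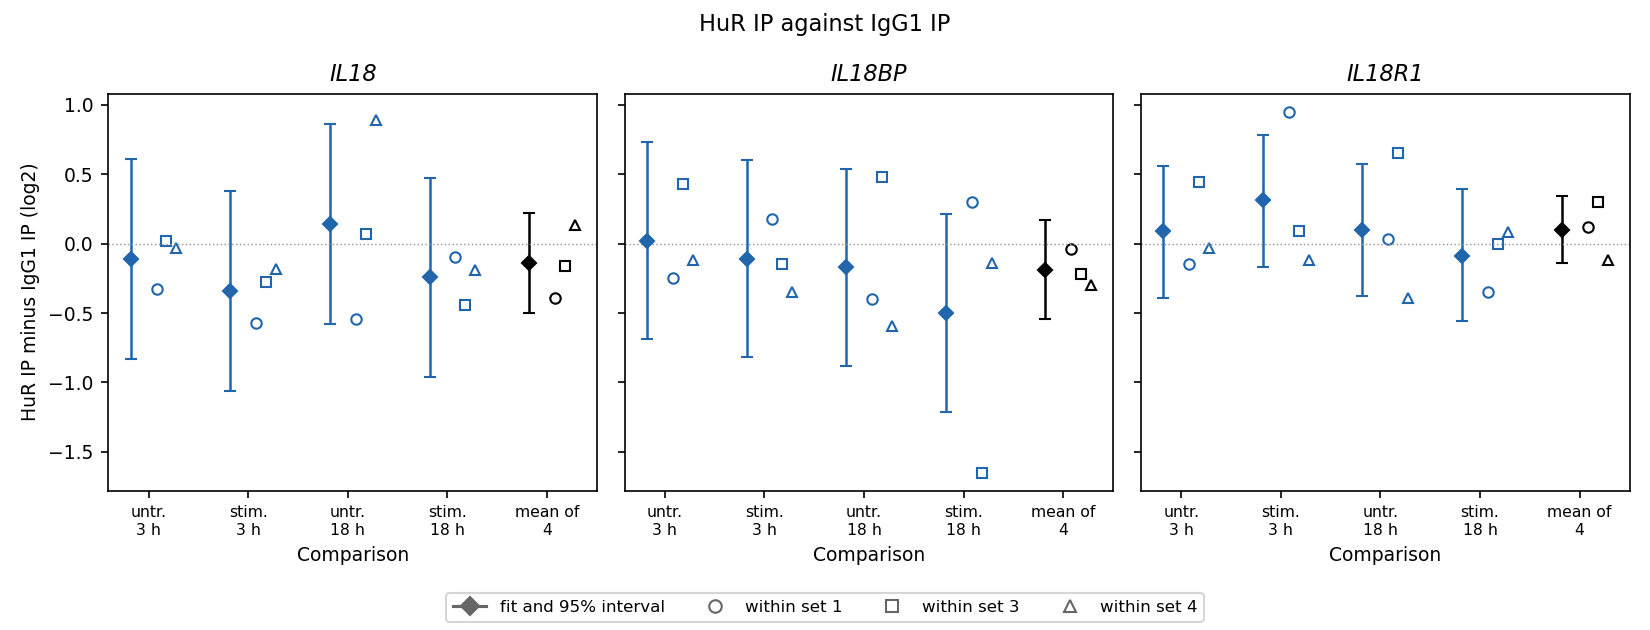
HuR IP minus IgG1 IP (log2) of each transcript in the 4 conditions and as their mean. Diamonds with bars are the fit and its 95% interval, open symbols the difference within each set. All intervals span 0, and the sets lie furthest apart for IL18BP in stimulated cells at 18 h (0.30, -1.65 and -0.14).

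In untreated cells, time in culture moved none of the 3 past the threshold. The difference of 18 h from 3 h, averaged over both antibodies, was 0.08 ± 0.24 for IL18 (-0.42 to 0.59), -0.14 ± 0.24 for IL18BP (-0.64 to 0.36) and -0.17 ± 0.16 for IL18R1 (-0.51 to 0.17), each with a limma adjusted p of 0.996. limma counted 0 genes here, 0% of all probes, and 4 at an unadjusted p under 0.05.

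The transcripts whose values ran closest to IL18BP over the 24 arrays, each centred within its set, were CXCL11 and CFB (Pearson r = 0.92 for both) and CCL5 (0.91). CXCL11 and CCL5 encode chemokines for T cells and CFB a component of the alternative complement pathway. Without centring they were CCL5 (0.91), CXCL11 (0.90) and IL15RA (0.87), the last a chain of the interleukin-15 receptor. The median r with all probes was -0.02 and -0.03. The 24 arrays include those of 18 h stimulation, on which IL18BP was chosen, so nothing is read from this likeness. At 18 h of stimulation CXCL11 differed by 3.45 ± 1.01 in the IgG1 IP and 3.09 ± 1.01 in the HuR IP, and CFB by 1.53 ± 0.55 and 1.02 ± 0.55.

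IL18 ran closest to MAPK3 (0.73) and MAP2K4 (0.72), both kinases of MAP kinase cascades, and to ITGB5 (0.71), an integrin chain. Without centring the leading probes were ITGB5 (0.77), YY1 (0.73) and MAPK3 (0.72). With IL18BP itself IL18 had r = -0.61 centred and -0.45 not centred. Those arrays include the ones of 18 h stimulation, on which both genes were chosen in opposite directions, so nothing is read from this sign. Among the probes closest to IL18R1 were IL5RA (0.80) and IL5 (0.71), a receptor chain and its cytokine known from leukocytes, and without centring IL5RA (0.75) and IL12A (0.73). The mean level of each of those 3 lay below the array median, between -0.49 and -0.14. All these correlations share the arrays, their scaling and the stimulation.

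Of 32 components listed for the rest of the interleukin-18 pathway, 22 were measured, and 0 passed in each of the 6 comparisons. Their median change was -0.04 at 3 h in the HuR IP (all probes -0.09) and -0.03 in the IgG1 IP (-0.09), and at 18 h 0.02 (0.03) and 0.08 (0.01). Those with the smallest p are named here for each comparison. At 3 h they were IRAK2, a kinase next to the receptor (0.45 ± 0.24), and IL12A, a subunit of interleukin-12, which acts together with interleukin-18 (0.40 ± 0.22), in the HuR IP. With IgG1 they were STAT4, which relays interleukin-12 signals (-0.50 ± 0.21), and NFKB1, a subunit of NF-κB (0.63 ± 0.29).

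At 18 h the smallest p belonged to NFKBIA, the NF-κB inhibitor that NF-κB itself induces, and RELA, the transactivating subunit. NFKBIA stood at 2.08 ± 1.14 in the HuR IP and 2.78 ± 1.14 in the IgG1 IP (limma adjusted p = 0.996 and 0.460), and RELA at 1.31 ± 0.72 and 2.11 ± 0.72 (limma adjusted p = 0.996 and 0.219). Between the antibodies MAPK8, a stress-activated kinase, led with 0.62 ± 0.22 (limma adjusted p = 0.650), followed by IKBKG, the regulatory subunit of the IκB kinase, with -0.12 ± 0.10. Over time in untreated cells IKBKG gave 0.29 ± 0.14 and IL12A -0.21 ± 0.16. Of the genes around the receptor, IFNG, the product that interleukin-18 induces in lymphocytes, and MYD88 were measured and passed in none of the 6.

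Of the other members of the interleukin-1 family and its receptors listed, 4 of 17 were measured, and 0 passed. Those with the smallest p in the stimulated cells were IL1A and IL1B, the cytokines interleukin-1α and -1β, at 3 h. IL1A stood at 1.36 ± 0.39 in the HuR IP and 1.13 ± 0.39 in the IgG1 IP (limma adjusted p = 0.116 and 0.334), and IL1B at 1.66 ± 0.52 and 1.62 ± 0.52 (limma adjusted p = 0.152 and 0.198). At 18 h IL1B gave 0.45 ± 0.52 in the HuR IP and 0.95 ± 0.52 in the IgG1 IP. IL1R1, the signalling receptor for interleukin-1, gave -0.11 ± 0.21 in the HuR IP at 18 h and IL1A 0.51 ± 0.39 in the IgG1 IP. The values of IL1A and IL1B were thus higher at 3 h than at 18 h, the reverse of IL18BP, a difference that was not tested. Between the antibodies IL1R2, a decoy receptor, and IL1B had the smallest p, and over time IL1R1 and IL1B, all with limma adjusted p of at least 0.992.

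Genes listed as inducible by IFNγ, without IL18BP itself, had 15 measured members of 24. At 3 h 1 rose in each immunoprecipitate, which was IRF1, with 14 of 15 above 0 and medians of 0.78 in the HuR IP and 0.66 in the IgG1 IP (all probes -0.09). At 18 h 3 rose in the HuR IP, which were CCL2, CCL5 and CCL8, chemokines for monocytes and T cells, with a median of 1.74 (all probes 0.03). In the IgG1 IP 4 rose, among them CCL5, IRF1 and CXCL10, with a median of 2.23 (all probes 0.01). The changes of IL18BP at 18 h, 1.35 and 1.68, were below these medians. These counts come from the fit without the replicate sets. In that fit 0.563% (HuR IP) and 1.13% (IgG1 IP) of all probes passed at 3 h, and 1.13% and 1.41% at 18 h. With the set as a block, 3 of the 15 passed at 3 h in the HuR IP (8 of all 355 probes) and 4 in the IgG1 IP (9 of 355). At 18 h 7 passed in the HuR IP (13 of 355) and 12 in the IgG1 IP (18 of 355). CCL5, like IL18BP, had a larger change at 18 h than at 3 h. At 3 h CCL5 was near 0 (0.05 ± 0.69 in the HuR IP and 0.04 ± 0.69 in the IgG1 IP), where IL18BP stood at 0.28 and 0.41. At 18 h CCL5 stood at 3.50 ± 0.69 and 3.44 ± 0.69 (limma adjusted p = 0.0128 and 0.0168). None of the 15 passed between the antibodies, where the smallest p belonged to CCL2 (1.49 ± 0.45) and CCL8 (0.78 ± 0.45), or over time in untreated cells, where it belonged to CCL2 (-0.61 ± 0.63) and JAK2 (-0.18 ± 0.27).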

How the data were processed

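RNA from HuR or IgG1 immunoprecipitates of BEAS-2B cells was converted to 33P-labelled cDNA and hybridised to membrane arrays, per the labels' protocols. The deposited values are spot intensities, and the scanner software, background correction and genome build are not given in these sources. A deposited second table holds the same intensities times 1 factor per array (0.542 to 3.64) whose origin is not stated. Of 384 probes 355 had values. Each array was set to log2 intensity minus its median. Arrays number 3 per group, which limits the precision.

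Models with 1 coefficient per group were fitted with limma 3.58.1 (R 4.3.3), with Benjamini-Hochberg adjustment over 355 probes at 0.05, and were tested on simulated data. Alternatives were other scalings, background correction, a filter on dim probes, a replicate block and arrays left out. The within-array ratio was added after seeing the data and has no test. The members and gene lists were chosen with earlier results of these data known. Named were the members, up to 4 passing genes per list and comparison by smallest p (or 2 where none passed), and the 3 probes most correlated with each member. Some genes that this rule names are not reported here.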

Additional observations from a re-analysis of the deposited data

How the results depend on the processing

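The count of passing genes depended strongly on the processing, and no member passed in the comparisons tested for it (3 h stimulation, HuR against IgG1, untreated time) under any alternative. At 3 h in the HuR IP 2 genes passed, against 8 with the replicate block, 1 with no centring, 7 with quantile scaling, 7 in the second table and 9 with the 75th percentile, and 0 to 19 with sets or arrays left out. At 3 h in the IgG1 IP 4 passed, against 9 with the block, 1 with no centring, 7 with quantile scaling, 7 with the 75th percentile and 0 from those arrays alone, and 0 to 17 with arrays left out. At 18 h in the HuR IP 4 passed, against 13 with the block, 9 with quantile scaling, 9 in the second table, 11 with the 75th percentile, 11 with normexp, 7 among brighter probes and 2 from those arrays alone, and 0 to 11 with arrays left out. At 18 h in the IgG1 IP 5 passed, against 18 with the block and 0 with no centring, in the second table or from those arrays alone, and 0 to 24 with arrays left out. Between antibodies 0 passed, against 2 in the second table, and over time in untreated cells 0, against 1 with quantile scaling.

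Several directions turned. At 3 h in the HuR IP IL18 ran from -0.43 to 0.08 and IL18R1 from -0.09 to 0.26 with arrays left out. At 3 h in the IgG1 IP IL18 was 0.06 in the second table and ran from -0.17 to 0.20 with arrays left out. There IL18R1 was 0.05 with quantile scaling and 0.33 with normexp, and ran from -0.34 to 0.13. Between antibodies IL18 was 0.07 with no centring and 0.14 in the second table, and IL18BP 0.02 and 0.09. Over time IL18 was -0.02 with normexp and -0.17 to 0.30 with arrays left out, and in the second table IL18BP was 0.09 and IL18R1 0.07. At 18 h of stimulation the HuR minus IgG1 difference turned with no centring and in the second table, from -0.50 to 0.88 and 1.14 for IL18BP, from -0.24 to 1.13 and 1.39 for IL18 and from -0.09 to 1.28 and 1.55 for IL18R1. The stimulated change of IL18R1 in the IgG1 IP at 18 h went from 0.30 to -0.91 and -1.18. The causes were not tested. At 18 h IL18BP was above 0 and IL18 below 0 in 17 of 17 alternatives for both antibodies, and IL18BP in the IgG1 IP was 0.20 in the second table. The shared set numbers did not meet the rule for pairing, since the lowest correlation of deviations between arrays of a set was 0.03 (median 0.64). Yet 82 of 84 pairs of arrays of a set were over 0.1, and 24 of 24 arrays correlated best with their own set. The main fit leaves the sets out, and with the block more genes passed in each stimulation comparison. With the block NFKBIA passed at 3 h in the IgG1 IP (limma adjusted p = 0.0285) and at 18 h in both (0.0412 with HuR and 0.00469 with IgG1), RELA at 18 h in the IgG1 IP (0.0158) and IL1A at 3 h in the HuR IP (0.0456). The dim-probe filter left out IL18R1.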
